A study of Mus musculus with 3 samples.

Results

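The genes described here are 10 genes of the B lymphocyte lineage whose RNA was counted in preparations of mouse platelets: Cd79a, Cd79b, Pou2af1, Spib, Ikzf3, Bank1, Fcmr, Fcrl1, Ralgps2 and Cd37. They were picked by symbol, with their values in these libraries already known, and matched to Entrez gene numbers; all 10 were among the 9822 genes of the tables and all 10 exceeded 1 CPM in every library, CPM being a gene's counts for every 1000000 counts of its library. The question set for them was which ones keep a fixed proportion to each other from library to library, as RNA carried over with B cells would, and whether Ralgps2 and Cd37 do so. Because the choice used these levels and their order across libraries, the levels, ratios and folds of the 10 genes are given as descriptions, with no test.

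The platelets were purified from blood; the mice were BALB/c males, 20 weeks old and wild type for Nxf1, with no treatment named, in 1 group of 3 libraries (replicates 1 to 3). The labels call the 3 samples independent but give each its own batch, so a difference between samples cannot be told apart from one between batches, and nothing states whether a sample pooled several mice. No purified B cells and no other genotype are analysed here, so every comparison is between genes of a library or between libraries of the same group. The tables held 25189231 to 26974129 counts per library, and a count of 0 would allow up to 3 counts, 0.111 to 0.119 CPM.

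The libraries differed from each other in more than B lineage RNA, which bears on everything that follows. Replicate 1 held far more red cell RNA: the 7 red cell genes in the tables summed to 48710 CPM there, against 5215 and 6800 CPM in replicates 2 and 3. Replicate 3 had the highest CPM of the 3 for 69.1% of the 8289 genes with a mean of at least 1 CPM, and the median gene stood at 1.18 times its mean in replicates 1 and 2. That tilt depended on the level of a gene, in bands chosen after seeing the data: the median was 1.33 times among the 3938 genes at 1 to 5 CPM, 1.14 times among the 3166 genes at 5 to 50 CPM and 1.03 times among the 715 genes at 50 to 200 CPM. Scaling by the trimmed mean of M values (TMM) took the median of all genes from 0.23 to 0.02 on the log2 scale. The platelet identity of the samples was plain, with the 14 platelet genes (among them Pf4, Ppbp and Gp9) at a summed 42189, 44088 and 45245 CPM.

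Mature B cells recognise antigen through surface immunoglobulin, which signals only because it is bound to the CD79A and CD79B chains; their cytoplasmic tails carry the tyrosine motifs that recruit SYK once a SRC family kinase such as LYN or BLK has phosphorylated them. The lineage is held by transcription factors that include PAX5, EBF1 and SPI-B, with the coactivator OCA-B (gene Pou2af1) acting together with the octamer-binding proteins OCT1 and OCT2. Platelets have no nucleus and inherit their RNA from megakaryocytes. Syk, Lyn, Btk and Plcg2 also serve platelet collagen receptor signalling, so that these genes are shared between both cell types.

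Promoter sequences were compared because they are a feature that the choice of genes did not use. RefSeq promoters (GRCm38.p6) were matched for 8 of the 10 genes, not for Cd79b and Ikzf3, and run from 250 bases before to 50 bases after an annotated start. Shown are those of the receptor chain gene Cd79a and the lineage factor gene Spib and those of Cd37 and Ralgps2, on their own strand from 5′ to 3′, with each CG dinucleotide in capitals.
Cd79a, chr7:24897247-24897546, plus strand: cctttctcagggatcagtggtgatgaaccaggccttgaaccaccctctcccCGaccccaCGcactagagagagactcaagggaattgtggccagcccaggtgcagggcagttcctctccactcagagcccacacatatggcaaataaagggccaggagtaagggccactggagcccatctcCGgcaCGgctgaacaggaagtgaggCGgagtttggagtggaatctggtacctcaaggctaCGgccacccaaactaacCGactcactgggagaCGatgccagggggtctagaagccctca
Spib, chr7:44532022-44532321, minus strand: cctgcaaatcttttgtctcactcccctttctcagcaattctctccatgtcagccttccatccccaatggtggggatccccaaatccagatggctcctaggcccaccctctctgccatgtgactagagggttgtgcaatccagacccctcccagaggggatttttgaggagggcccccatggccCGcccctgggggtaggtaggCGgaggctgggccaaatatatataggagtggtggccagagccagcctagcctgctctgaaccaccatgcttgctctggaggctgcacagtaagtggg
Cd37, chr7:45238790-45239089, minus strand: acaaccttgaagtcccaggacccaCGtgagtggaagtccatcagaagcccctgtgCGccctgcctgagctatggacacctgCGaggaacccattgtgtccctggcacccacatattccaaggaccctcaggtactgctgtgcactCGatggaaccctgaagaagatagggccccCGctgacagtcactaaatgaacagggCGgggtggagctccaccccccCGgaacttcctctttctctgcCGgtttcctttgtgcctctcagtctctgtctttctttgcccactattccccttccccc
Ralgps2, chr1:156939338-156939637, minus strand: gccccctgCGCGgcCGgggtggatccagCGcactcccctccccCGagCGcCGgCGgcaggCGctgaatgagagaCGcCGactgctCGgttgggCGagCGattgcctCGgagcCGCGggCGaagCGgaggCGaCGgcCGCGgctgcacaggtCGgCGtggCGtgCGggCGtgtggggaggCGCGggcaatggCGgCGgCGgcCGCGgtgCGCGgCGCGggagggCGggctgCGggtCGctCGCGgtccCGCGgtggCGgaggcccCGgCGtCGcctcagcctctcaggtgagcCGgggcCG

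Ralgps2 stood apart in this sequence feature. Its promoter holds 52 CG dinucleotides and is 80.0% G or C, and the promoter of its other annotated start holds 51. Of 32851 promoters of the same length, whose median is 7 CG, only 0.715% hold 51 or more. Cd79a, Cd37 and Pou2af1 have 8 each, Fcmr has 5, Fcrl1 has 4, Bank1 has 3 and Spib has 2, all close to or below that median. By CG content Cd37 was near Cd79a and Pou2af1, but 8 CG is also an ordinary value. Of all promoters 48.65% hold 8 or more and 54.2% hold 8 or fewer, so no lineage is read from it. Motifs were searched on both strands by letters alone. The PU box core GAGGAA, read by SPI-B and its relative PU.1, was found in the promoters of Cd79a, Cd37, Fcmr, Fcrl1 and Pou2af1, and in 28.3% of all promoters. The paired half-site CCCNNGGG of EBF1 type was found in those of Bank1 and Spib and in 13.7% of all. The octamer ATTTGCAT, found in 1.74% of all promoters, and the Ikaros core TGGGAA, found in 25.6%, were in none of these windows. These are matches of letters and not measured sites.

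Both receptor chain genes were counted in all 3 libraries. Cd79a (Entrez gene 12518, chromosome 7, 24897497 to 24901858 in GRCm38) gave 324, 323 and 571 counts in replicates 1, 2 and 3, which is 12, 12.8 and 21.9 CPM. Exact 95% Poisson intervals, which cover counting error only, were 10.7 to 13.4, 11.5 to 14.3 and 20.1 to 23.7 CPM. Replicate 3 was therefore above both other libraries by more than counting error, and replicates 1 and 2 overlapped. Cd79b (gene 15985, chromosome 11, 106311341 to 106314562) was at 6.19, 9.17 and 17.0 CPM, from 167, 231 and 445 counts. Here all 3 libraries were separate by counting error, and the range was the widest of the 10 genes, 2.75-fold between replicates 3 and 1 (95% interval 2.30 to 3.31) against 1.82-fold (1.59 to 2.09) for Cd79a.

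The 3 genes of transcriptional control were all highest in replicate 3. Pou2af1 (gene 18985, chromosome 9, 51213690 to 51240079), which encodes the B cell coactivator OCA-B, was at 20.1, 24.8 and 48.4 CPM from 543, 624 and 1265 counts. Spib (gene 272382, chromosome 7, 44525995 to 44532087), an ETS family factor, was at 14.9, 16.7 and 30.8 CPM from 401, 420 and 803 counts. Ikzf3 (gene 22780, chromosome 11, 98464610 to 98546031), which encodes Aiolos of the Ikaros family, was at 9.08, 9.96 and 21.6 CPM from 245, 251 and 564 counts. In each of them replicate 3 lay clear of the other libraries, by 2.41-fold over replicate 1 for Pou2af1, 2.07-fold for Spib and 2.38-fold for Ikzf3. For all genes with a mean of at least 1 CPM the median fold of replicate 3 over replicate 1 was 1.17.

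The adaptor and the Fc receptor relatives were also highest in replicate 3, with replicate 2 lowest. Bank1 (gene 242248, chromosome 3, 136053363 to 136326141), a scaffold that links the B cell receptor to calcium release, was at 13.8, 13.1 and 29.3 CPM. Fcmr (gene 69169, chromosome 1, 130865777 to 130880790), the receptor for the Fc part of IgM, was at 11.5, 10.5 and 18.5 CPM. Fcrl1 (gene 229499, chromosome 3, 87376353 to 87403967), an Fc receptor-like protein of B cells, was the lowest of the set at 5.38, 5.12 and 9.23 CPM, from 145, 129 and 241 counts. For these 3 genes replicates 1 and 2 overlapped within counting error and replicate 3 lay above both. Its fold over replicate 2 was 2.24 for Bank1 (95% interval 1.97 to 2.56), 1.75 for Fcmr (1.51 to 2.05) and 1.8 for Fcrl1 (1.45 to 2.25).

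Ralgps2 and Cd37 gave more reads on average and varied less. Ralgps2 (gene 78255, chromosome 1, 156804166 to 156939850), an exchange factor for the small GTPase Ral, was at 128, 115 and 129 CPM from 3440, 2892 and 3365 counts. Replicates 1 and 3 did not differ beyond counting error (1.01-fold, 95% interval 0.963 to 1.06), and replicate 2 was the lowest. Cd37 (gene 12493, chromosome 7, 45233632 to 45239340), a tetraspanin found widely on leukocytes, was at 33.8, 35.3 and 44.9 CPM from 912, 889 and 1172 counts. Replicate 3 was highest, but by only 1.33-fold over replicate 1 (1.22 to 1.45) and 1.27-fold over replicate 2 (1.16 to 1.39). The coefficient of variation was 6.27% for Ralgps2 and 15.8% for Cd37, against 32.0% to 51.9% for the other 8 genes.

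**Figure D1:**
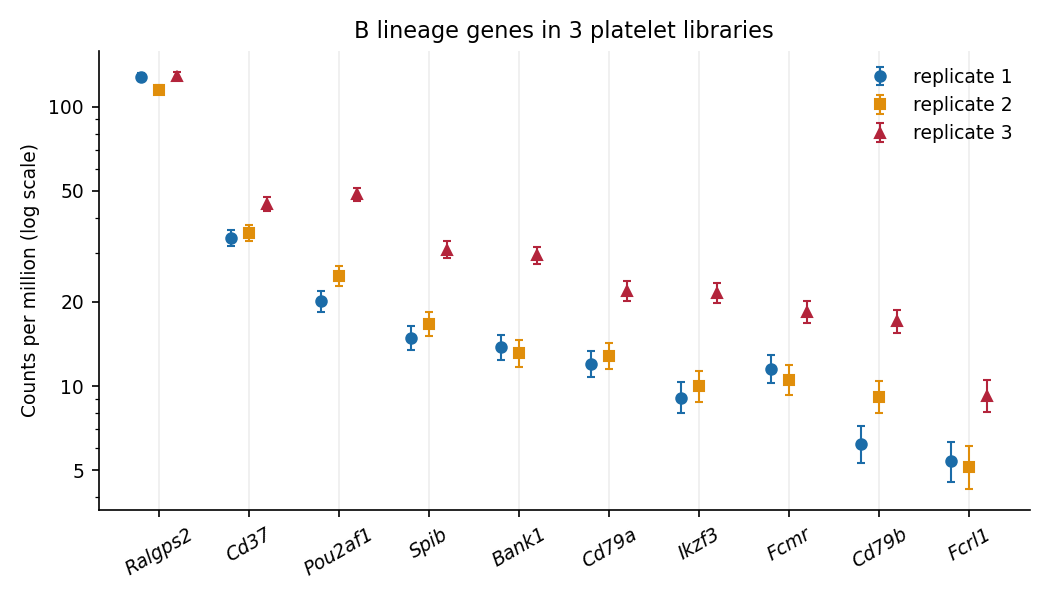
CPM (log scale) of the 10 B lineage genes in replicates 1, 2 and 3, ordered by mean level; bars are exact 95% Poisson intervals, which cover counting error only. The replicate 3 interval lies above both others for every gene except Ralgps2, as for Pou2af1 at 48.4 against 20.1 and 24.8 CPM and, by less, for Cd37 at 44.9 against 33.8 and 35.3 CPM; Ralgps2 was at 128, 115 and 129 CPM.

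All 10 genes had their highest CPM in replicate 3, beside 69.1% of all genes. A replicate 3 value at least 1.5 times the mean of the other libraries was seen for 8 of the 10, all but Ralgps2 and Cd37, where 22% of all genes and 14.5% of the genes at 5 to 50 CPM reached it. Ralgps2, at a mean of 124 CPM, belongs to the band of 50 to 200 CPM. Only 1.40% of genes reached 1.5-fold there, and their median of 1.03 was near the 1.06 of Ralgps2. With TMM scaling 9 of the 10 were highest in replicate 3, beside 42.1% of genes, and 7 of the 10 passed 1.5-fold, beside 10.2%; Fcmr fell short at 1.44. The exception to the order was Ralgps2, which on that scale was highest in replicate 1, at 134, 120 and 117 CPM. Cd37 was still highest in replicate 3, at 35.6, 37.0 and 40.7 CPM. These contrasts were part of how the genes were chosen, and nothing is read from the shares.

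**Figure D2:**
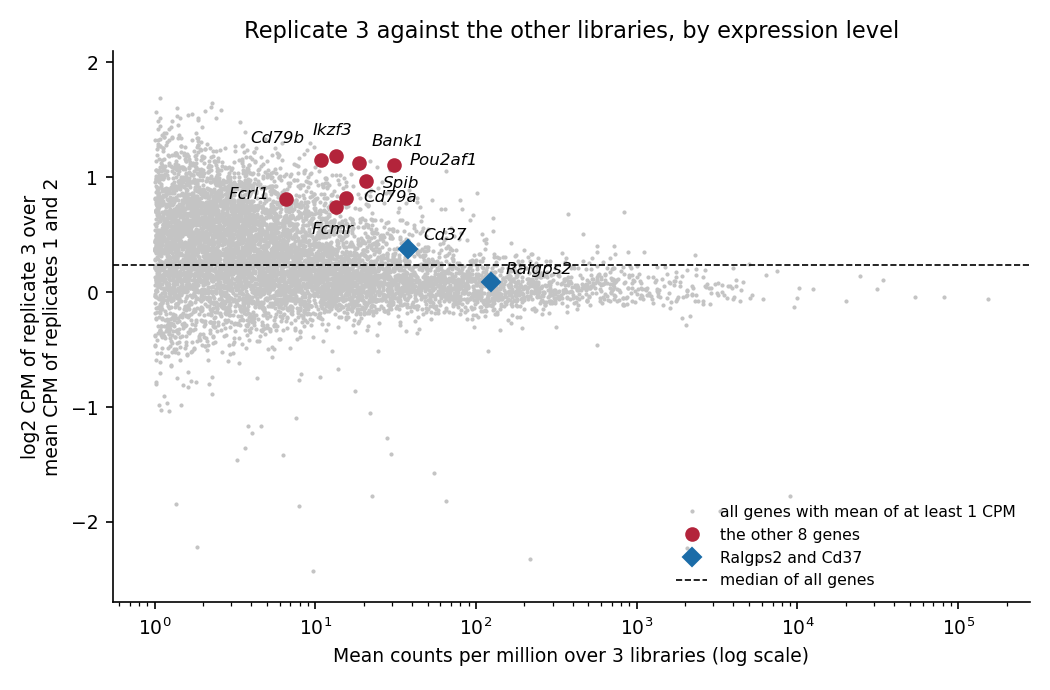
Mean CPM over 3 libraries (log scale) against the log2 ratio of CPM in replicate 3 to the mean of replicates 1 and 2; grey points are the 8289 genes with a mean of at least 1 CPM, the dashed line is their median, red circles are 8 B lineage genes and blue diamonds are Ralgps2 and Cd37. The grey cloud narrows towards higher levels, and the red points run from 1.67-fold (Fcmr) to 2.27-fold (Ikzf3), with Cd37 at 1.30-fold and Ralgps2 at 1.06-fold.

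Together the 8 genes other than Ralgps2 and Cd37 gave 2508, 2573 and 5137 counts, or 93.0, 102 and 197 CPM in replicates 1, 2 and 3. Replicate 3 was 2.12 times replicate 1 and 1.93 times replicate 2, while replicates 1 and 2 differed by 1.10-fold. The mean was 131 ± 57.4 CPM (SD, n = 3), and this spread rests on replicate 3. In such bulk RNA, fewer B cells and less RNA per cell cannot be told apart.

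Dividing each gene by Cd79a in the same library removes the library scaling altogether. The ratios are given as log2 of counts with 2 added to each. Counting error is not included in them, and Fcrl1 rests on 145, 129 and 241 counts, so the smallest spreads are not ranked against each other. The ratios of Fcrl1 and Spib had the smallest SD. Fcrl1 was at -1.15, -1.31 and -1.24 in replicates 1, 2 and 3 (mean -1.23 ± 0.08, SD, n = 3). Spib was at 0.31, 0.38 and 0.49 (0.39 ± 0.09). Fcmr was at -0.06, -0.28 and -0.24. Bank1 was at 0.20, 0.03 and 0.42, and Ikzf3 at -0.40, -0.36 and -0.02. In both of these replicate 3 was the highest, above the mean of replicates 1 and 2 by 0.31 (Bank1) and 0.36 (Ikzf3), so they outran Cd79a there. Pou2af1 was at 0.74, 0.95 and 1.14.

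Cd79b was the least steady of the lineage genes, although its protein pairs with that of Cd79a. Its ratio was -0.95, -0.48 and -0.36, a range of 0.59, and the departure was replicate 1, where Cd79b gave 0.515 counts per Cd79a count against 0.715 and 0.779. Among the 7 lineage genes set against Cd79a, ranges ran from 0.16 (Fcrl1) to this 0.59.

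Ralgps2 moved in the opposite direction. It gave 10.6, 8.95 and 5.89 counts per Cd79a count in replicates 1, 2 and 3, a log2 ratio of 3.40, 3.15 and 2.55 with a range of 0.85, the widest of the set. Cd37 gave 2.81, 2.75 and 2.05 counts per Cd79a count, at 1.49, 1.46 and 1.03. Its range of 0.45 was smaller than that of Cd79b, so by range alone Cd37 was no less steady than the receptor chain. Ralgps2 and Cd37 were the genes whose ratio fell most in replicate 3. There it lay 0.72 (Ralgps2) and 0.44 (Cd37) below its mean in replicates 1 and 2 on the log2 scale. For the other 7 genes that shift was between -0.07 and 0.36, so the largest rises were near the fall of Cd37 in size. With Cd79b as the reference the SD over libraries was 0.72 for Ralgps2 and 0.52 for Cd37, against 0.14 (Pou2af1) to 0.43 (Fcmr) for the rest.

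**Figure D3:**
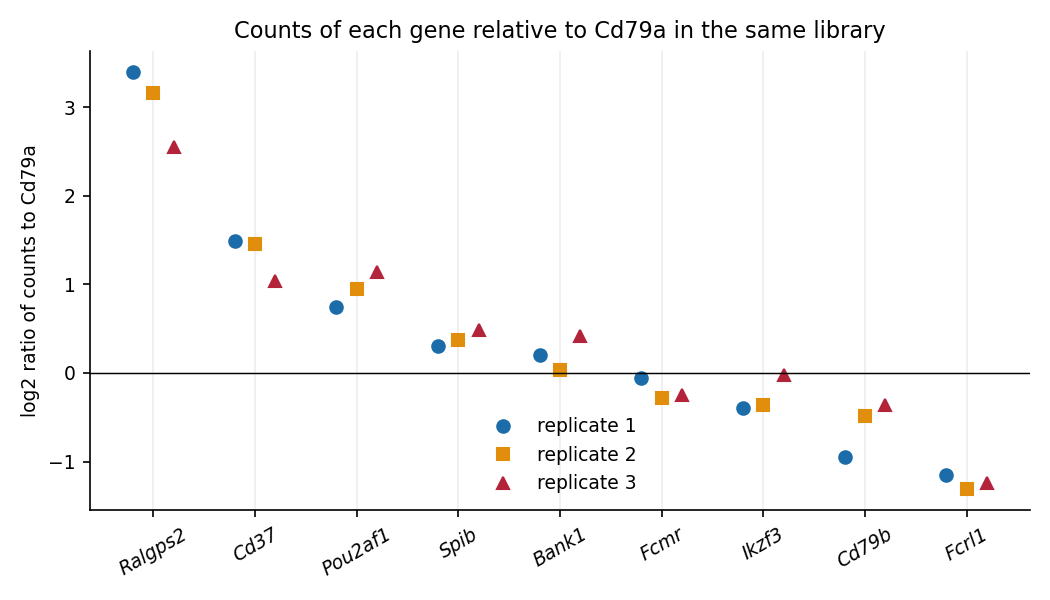
Log2 ratio of counts of each gene to those of Cd79a in the same library (2 added to each count), in replicates 1, 2 and 3; the line at 0 marks equal counts. Ralgps2 falls from 3.40 to 2.55 and Cd37 from 1.49 to 1.03 between replicates 1 and 3, while Spib, Fcmr and Fcrl1 vary by 0.16 to 0.22.

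Genes outside the set give a scale for these ratios. The immunoglobulin heavy chain gene Ighm stayed at 2.40, 2.32 and 2.35 relative to Cd79a, a range of 0.08, and Ebf1, an early B lineage factor, at -2.39, -2.41 and -2.36. The platelet genes Pf4, at 9.67, 9.65 and 8.80, and Cd9, at 9.68, 9.58 and 8.68, were lower relative to Cd79a in replicate 3 by more than Ralgps2 was. Lyn was at 5.87, 5.77 and 5.04. The T cell kinase gene Lck was at -0.43, -0.22 and -0.39, within the range of the B lineage genes, whereas Trac, the T cell receptor alpha constant gene, was at -1.29, -1.41 and -1.87. A steady ratio to Cd79a over these libraries was thus also met outside the B lineage.

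How common the Cd79a pattern is was measured by the distance between centred log2 CPM profiles over the 3 libraries, among 4341 other genes with a mean of at least 5 CPM. Fcrl1, at a distance of 0.11, had 131 other genes at least as near to Cd79a, or 3.02%, and Spib and Fcmr had 3.71% and 5.64%. Bank1, Pou2af1 and Ikzf3 had 12.1% to 13.5%, Cd37 18.4%, Cd79b 26.8% and Ralgps2 59.8%. The genes nearest to Cd79a were Ubap2l (8.67, 9.29 and 15.8 CPM), Septin6 (12.2, 13.2 and 22.4), Tcof1 (7.86, 8.54 and 14.4), Smarca4 (7.27, 7.86 and 13.5) and the immunoproteasome gene Psmb8 (10.3, 11.2 and 19.2). Nearest to Ralgps2 were Bbx, Spty2d1 and Rnf139, the second of them at 27.7, 25.1 and 28.1 CPM, and nearest to Cd37 were Ogdh, Rasal3 and Unc119b. With 3 libraries a profile has few ways to differ, and such neighbours describe these libraries only.

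Levels can be set between genes only per length, as CPM per 1000 bases of the deposited gene length (RPKM). Cd37 was highest at 31 ± 4.90 RPKM (SD, n = 3), rank 997 of all genes, and Ralgps2 followed at 17.3 ± 1.09. Ralgps2, the gene with by far the most reads, owed part of them to a length of 7133 bases against 1226 for Cd37. Pou2af1 was at 12.1 ± 5.92, Cd79a at 11.7 ± 4.12, Fcmr at 9.06 ± 2.90 and Cd79b at 9.02 ± 4.68 RPKM. Spib was at 7.45 ± 3.12, Bank1 at 5.77 ± 2.83, Ikzf3 at 3.31 ± 1.70 and Fcrl1 at 3.22 ± 1.13 RPKM. Of the 9 pairs of neighbours in this order, 4 held it in all 3 libraries: Cd37 over Ralgps2, Cd79a over Fcmr, Spib over Bank1 and Bank1 over Ikzf3. In the other 5 the order changed with the library, so Cd79a and Pou2af1, Fcmr and Cd79b, Cd79b and Spib, Ikzf3 and Fcrl1, and Ralgps2 and Pou2af1 were not separable. In replicate 3 Pou2af1 (18.9 RPKM) reached the level of Ralgps2 (18.1 RPKM), and in replicate 1 it was far below it, at 7.85 against 17.9 RPKM.

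Many other genes listed for B cells were counted too, though some of them, such as Lyn and Syk, also serve platelets. Of 67 other genes on 5 B cell lists, 61 were in the tables; Igll1, Vpreb1, Fcgr2b, Cd5, Fcrl5 and Cd86 were not among the genes used here. The defining genes Ms4a1, which encodes CD20 (7.12, 5.95 and 11.3 CPM), and Pax5 (3.78, 4.21 and 9.23 CPM) were both detected. Each was highest in replicate 3. In all, 56 of the 57 listed genes with a mean of at least 1 CPM were highest there, beside 69.1% of all genes, and 53 with TMM scaling, beside 42.1%. A fold of at least 1.5 was met by 45 of the 57 (22% of all genes) and, with TMM scaling, by 30 (10.2%). The median fold was 1.76 for the lists and 1.18 for all genes. Genes whose mean passed 1 CPM through a high replicate 3 are favoured by that count.

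A test of spread between libraries called none of the listed genes. The test, edgeR's quasi-likelihood dispersion set against its trend, called 22 of 8289 genes (0.265%) at a Benjamini-Hochberg adjusted p under 0.05 and 0 of the 57 listed genes, whose lowest adjusted p was 0.260. At an unadjusted p under 0.05 there were 24 of the 57, beside 4.72% of all genes. Dispersion outliers in DESeq2, 0.603% of all genes, included 3 of the listed genes, Ciita, Ets1 and Ighd. On simulated libraries the edgeR test found 0 of 50 genes raised 2-fold in 1 library and 17 of 50 raised 4-fold, and none of the 8089 unchanged genes.

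Receptor chain and coreceptor genes were led per length by the immunoglobulin genes. Igkc, the kappa constant gene, was at 102 RPKM (28.8, 25.4 and 43.9 CPM), Ighm at 53.6 RPKM (63.8, 64.4 and 112 CPM) and Iglc2 at 37.6 RPKM. The lambda constant genes are near-identical copies whose reads the counting could divide, so their single levels are uncertain. Ighd, the constant gene of IgD on naive B cells, was at 15.1, 16.1 and 34.4 CPM. All 12 genes of the list with a mean of at least 1 CPM were highest in replicate 3, and 11 passed 1.5-fold, or 6 with TMM scaling, beside 22% and 10.2% of all genes.

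Lineage transcription factor genes had a median fold of 1.89, with 11 of 13 past 1.5-fold (22% of all genes), or 8 with TMM scaling (10.2%). Ets1 (47.8, 48.7 and 99.9 CPM) was the highest per length, followed by Mef2c (46.0, 47.7 and 57.0 CPM) and Spi1, which encodes PU.1 (6.23, 6.67 and 11.0 CPM). Mef2c, at 1.22-fold, fell short of 1.5. Among partners and relatives of the described genes, Pou2f2, which encodes OCT2, was at 4.15, 3.53 and 9.19 CPM, Pou2f1, which encodes OCT1, at 1.08, 1.27 and 1.91 CPM, and Ikzf1, which encodes Ikaros, at 18.1, 16.6 and 31 CPM. Ikzf5 of the same family was at 5.04, 5.95 and 5.78 CPM, and the ETS relative Elf1 at 109, 119 and 109 CPM.

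The signalling genes were uneven. Lyn (707, 706 and 720 CPM), Dapp1 (235, 230 and 261 CPM) and Bcl10 (125, 114 and 116 CPM), the highest of the list per length, were at 0.97 to 1.13 times in replicate 3. Syk (164, 165 and 206 CPM) and Btk (27, 25.4 and 30.9 CPM) were at 1.25 and 1.18 times. Blk (8.49, 9.17 and 17.0 CPM), a SRC family kinase named for B lymphocytes, and the linker gene Blnk (4.26, 6.23 and 10.7 CPM) were at 1.93 and 2.04 times. Over the list, 6 of 12 passed 1.5-fold, or 5 with TMM scaling, beside 22% and 10.2% of all genes. Ralgps2 and Cd37, at 1.06 and 1.30 times, were on the side of Lyn, Syk and Btk in value.

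Other surface genes were led per length by Cd52 (14.0, 14.8 and 21.8 CPM) and Ltb (6.75, 6.79 and 11.9 CPM). Of 11 genes 10 passed 1.5-fold, or 8 with TMM scaling, beside 22% and 10.2% of all genes. The list's median of 2.99 CPM lies in the band of 1 to 5 CPM, where 34.4% of genes passed on plain CPM. Fcrla, an Fc receptor-like relative of Fcrl1, was at 4, 3.73 and 6.82 CPM. In the MHC class II list, Cd74 (113, 101 and 167 CPM), H2-Aa (77.3, 82.2 and 127 CPM) and H2-Eb1 (29.7, 29.3 and 45.6 CPM) led, and 7 of 9 passed. With TMM scaling that was 3 of 9. The shares of all genes were 22% and 10.2%. Ciita, the master regulator of class II genes, was at 4.26, 7.62 and 13.6 CPM, in the same order of libraries as Cd79b.

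**Figure D4:**
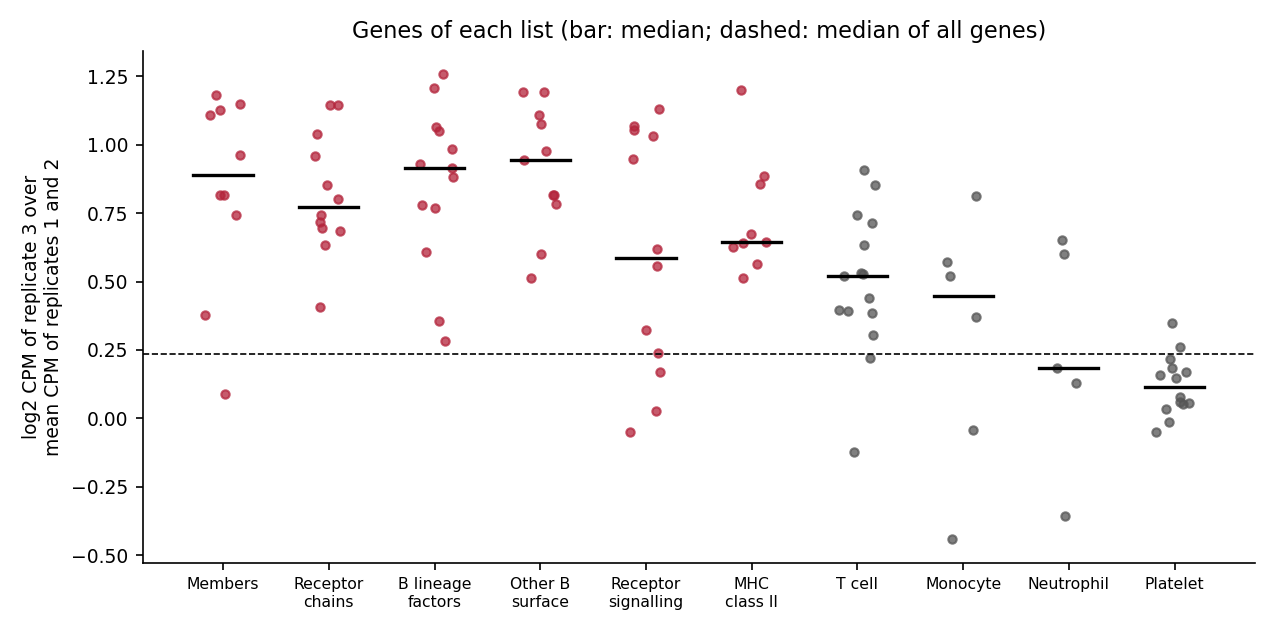
Log2 ratio of CPM in replicate 3 to the mean of replicates 1 and 2 for each gene with a mean of at least 1 CPM, by list; bars are medians, the dashed line is the median of all genes (1.18-fold), and red marks the 10 described genes and the B cell lists. B lineage factor genes have a median of 1.89-fold, T cell genes of 1.43-fold and platelet genes of 1.08-fold.

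Markers of other blood cells had no single order of libraries. T cell genes other than Lat, a platelet gene as well, summed to 58.6, 58.7 and 85.2 CPM over 17 genes, 1.45 times in replicate 3 over either library, and 5 of the 15 T cell genes with a mean of at least 1 CPM passed 1.5-fold, or 2 with TMM scaling. That share is close to the 34.4% of all genes at 1 to 5 CPM, the band that holds the list's median. Trbc1 was at 5.60, 4.84 and 6.09 CPM and Trbc2 at 4.23, 4.45 and 5.67 CPM. Monocyte genes other than Lyz2 summed to 21.9, 15.0 and 24.5 CPM, with Ctss at 6.56, 4.37 and 8.12 CPM but Csf1r, the receptor for a macrophage growth factor, at 1.67, 1.35 and 1.11 CPM. Lyz2 alone was at 0.97 times in replicate 3. The neutrophil genes, led by S100a9 and S100a8, summed to 14.1, 18.9 and 22.5 CPM, while Mmp8 among them was at 1.89, 1.15 and 1.19 CPM. NK cell genes, led by Nkg7 at 3.67, 4.45 and 3.94 CPM, summed to 7.19, 8.5 and 9.04 CPM. No platelet gene of the 14 passed 1.5-fold, but all 14 had means above 200 CPM, where only 0.426% of the 470 genes passed. The part that the broad tilt of replicate 3 towards low genes or T cell RNA has in the B lineage values was not tested.

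Relatives of Ralgps2 and Cd37 are given for comparison. Ralgps1 was not among the genes used here. Of the Ral pathway genes, Ralb was at 15.9, 14.8 and 16.6 CPM, the same order of libraries as Ralgps2 with replicate 2 lowest. Rala was lower, at 3.00, 3.73 and 4.40 CPM, and Rgl1, another exchange factor, was at 11.9, 11.6 and 12 CPM. Among tetraspanins, Cd9 (9893, 9850 and 9007 CPM), Tspan17 (589, 607 and 578 CPM) and Cd151 (427, 439 and 523 CPM) were highest per length, and in replicate 3 they were at 0.91, 0.97 and 1.21 times. Cd53, like Cd37 a tetraspanin of leukocytes, was at 6.56, 6.51 and 9.15 CPM, 1.40 times in replicate 3, next to 1.30 times for Cd37.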

How the data were processed

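Per the labels' protocols, a Norgen kit was used for RNA and the Illumina TruSeq RNA v2 kit for libraries. The deposited tables give raw counts per Entrez gene and a gene length. CASAVA 1.8.2, Subread, featureCounts, edgeR 3.11.5 and build mm10 are named in the submitters' processing notes; annotation, strand and multi-mapping settings are not stated in those sources. All tables hold the same 9822 genes, each with counts in at least 1 library, so a filter that is not stated preceded deposit; 186 had no symbol in RefSeq GRCm38.p6.

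CPM used plain library totals, RPKM the deposited lengths; a lower limit of 1 CPM (mean) applied to tests and shares. The spread test used edgeR 4.0.16 with TMM (factors 0.949, 0.955 and 1.10), an intercept and 2 residual degrees of freedom; it was tested on simulated data with 0 false calls among 8089 unchanged genes. DESeq2 1.42.0 was an alternative. Folds carry Clopper-Pearson intervals on the split of counts. Python 3.11.15, SciPy 1.17.1 and R 4.3.3 were used. The samples are not stated to be separate mice, so p-values measure only how far these samples spread, which may be technical variation.

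Genes, lists and tests were chosen with earlier results of these data known. Named genes were the 10 described, the 3 highest per length of each of 17 lists, genes called by the spread test, the nearest profiles (5 for Cd79a, 3 each for Ralgps2 and Cd37) and relatives of members; others named were chosen after their values were seen. Some genes named by that rule are not reported here.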

Additional observations from a re-analysis of the deposited data

How the results depend on the processing

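Other library sizes (TMM, DESeq2, totals without the 10 highest genes) kept the mean sum of the 10 genes (292 CPM) within 1 SD, and leaving out each replicate gave 253 to 312 CPM. The median log2 ratio to Cd79a, 0.30, was 0.90 against Cd79b, since Cd79b was lower. The number of listed B cell genes called by the spread test, 0, was 0 to 1 when a replicate was left out (Ciita, adjusted p = 0.0282 by edgeR, without replicate 2) and 3 by dispersion outliers in DESeq2. Over all genes the edgeR spread test called 22, of which 6 were red cell genes. Leaving out replicates 1, 2 and 3 in turn gave 2, 24 and 29. It called 11 with plain totals, 30 with DESeq2 size factors, 23 with no minimum level and 17 with a minimum mean of 5 CPM. With a robust prior it called 0 (422 at an unadjusted p under 0.05), and dispersion outliers in DESeq2 numbered 50. The cause of these differences was not tested. Of 104 alternatives for single genes, 96 stayed within 1 SD and the 8 that moved were all ratios taken to Cd79b. Those that left out a replicate could not have moved, because dropping 1 of 3 values shifts a mean by less than 1 SD. The 96 are therefore no measure of how stable the values are. With DESeq2 size factors the median of all genes was -0.03 on the log2 scale. On that scale 9 of the 10 genes and 51 of the 57 listed were highest in replicate 3, beside 37.6% of all genes. A fold of 1.5 was passed by 5 of the 10 and 27 of the 57, beside 8.46% of all genes. No paired analysis was possible because there is 1 group. Counts of 145 or fewer, as for Fcrl1, limit single values most.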

Other observations

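A few genes ran against the B lineage order, and they were chosen after their values were seen. Jchain, which encodes the joining chain of secreted IgM and IgA, gave 51, 21 and 19 counts in replicates 1, 2 and 3, or 1.89, 0.834 and 0.728 CPM, lowest in replicate 3, where all 8 B lineage genes were highest. Of the other plasma cell genes, Mzb1 was at 7.64, 7.70 and 10.9 CPM and Xbp1 at 3.60, 3.45 and 3.83 CPM. Cd27, a lymphocyte receptor gene on the T cell list here, was at 0.927, 0.794 and 0.498 CPM. These came from only 25, 20 and 13 counts, with a mean under 1 CPM, so its order of libraries is uncertain. The tetraspanin gene Tspan33 was at 2.15, 0.318 and 0.306 CPM, from 58, 8 and 8 counts, highest in replicate 1 as the 7 red cell genes were.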
